A study of Arabidopsis thaliana with 35 samples.

Results

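The features described here are loci that were added to the Arabidopsis thaliana annotation used for counting, with names of the form novel_Chr_coding followed by a number, or that join neighbouring annotated features under a merged name. Of 66429 features counted, 1969 carried such a name, and 241 of these had at least 20 counts in at least 5 of the 35 libraries: 232 of 1950 added coding loci and 9 of 19 merged loci. The members were thus selected on their read counts in these same libraries. The libraries are stranded mRNA-seq of mature pollen, ecotype Col0, with 5 libraries for each of 7 genotypes: wild-type, mbd5 mbd6, sln, acd15.5, acd21.4, acd15.5 acd21.4 and acd15.5 acd21.4 sln. The labels put 2 libraries of every genotype in batch 1 and the other 3 in batch 2. They name no alleles. Nothing in them says that libraries of a genotype were grown separately, and the spread that the p-values rest on may therefore be technical.

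MBD5 and MBD6 are methyl-CpG-binding proteins that take part in silencing of methylated genes and transposons. SILENZIO (SLN) is a J-domain protein, the kind of co-chaperone that works with HSP70, and ACD15 and ACD21 are alpha-crystallin domain proteins of the small heat shock protein type. Pollen consists of a large vegetative cell whose chromatin is loosely packed, with 2 small sperm cells inside it. The added coding loci have no name beyond their identifier, so no role can be given to them, and their positions and lengths were not used here. Levels are CPM, counts relative to library size after scaling by the trimmed mean of M-values (TMM), and are not per length: an order of loci by CPM is an order of their reads, not of transcript levels.

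Total counts per library ranged from 9267958 to 22208090, with a median of 13847738. Reads assigned to no annotated feature made up 0.218% to 1.0005% of the reads counted to a feature or to none. Summed CPM of the 7 vegetative cell markers lay between 11028 and 19215 in all libraries, that of the 6 sperm cell markers analysed between 514 and 625, that of the 8 green tissue markers between 20.4 and 53.3, with none at 0, and that of the tapetum markers between 0.066 and 0.368, with A9, ATA7, MS1 and GRP17 at 0. The green tissue sum had a median of 33.6 CPM in wild-type and 25.8 in acd15.5 acd21.4 sln to 39.7 in sln among the mutants, with ranges that overlapped, and its part in the results was not tested. SLN itself fell from 4.51 ± 0.286 CPM (SD, n = 5) in wild-type to 0.259 CPM in sln and 0.246 CPM in acd15.5 acd21.4 sln. MBD6 had 0 to 2 counts per library in mbd5 mbd6 against 8 to 16 in wild-type, while MBD5, ACD15 and ACD21 had at most 4 counts in any library and could not check the labels. In 3 batch 1 libraries (mbd5 mbd6 library 1, acd15.5 acd21.4 library 2 and acd15.5 acd21.4 sln library 1) the expression profile stood apart from the batch-mate on the second principal component, and results that rest on them are given with and without them. The rule took the higher library of each batch 1 pair more than 10 apart on that component. Its sign was set so that it rises with reads in no feature. The 3 values were 14.3, 15.2 and 12.5. Both batch 1 libraries of acd15.5 (13.6 and 15.7) and of acd21.4 (15.1 and 18.5) lay as high and were kept. In bulk pollen, fewer cells of a type and less RNA per cell cannot be told apart.

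Of the 9 merged members, 8 are named after the features they join, and the RefSeq annotation of TAIR10.1 gives what 14 of those 16 parts are. They include phospholipase D beta 1 (PLDBETA1, chromosome 2, 17532813 to 17538628, minus strand) with a serine tRNA, and AT2G47020, a peptide chain release factor 1 gene (chromosome 2, 19319685 to 19322507, minus strand), with the transposable element AT2TE88030. Others join a pair of leucine-rich repeat protein kinase genes (AT5G59650 and AT5G59660), the snoRNA SNOR77 with the long noncoding RNA AT5G01775, a C1 domain gene with a transposable element, and a tetratricopeptide repeat gene with a noncoding RNA. The remaining 2 join pseudogenes: AT4G19310 with AT4G19320 (chromosome 4, 10547772 to 10552972, minus strand) and AT5G36020 with AT5G36030 (chromosome 5, 14159321 to 14164523, plus strand). These 2 loci are near copies, 99.12% identical over 5205 aligned columns with 40 mismatches and 6 gap columns, so reads from one can be counted to the other or left out as multiply mapped, and both values are uncertain. Their matching 100-base ends are shown to make that likeness visible, 5′ to 3′ from RefSeq TAIR10.1, with the 1 base that differs in capitals; the first is chr4:10547772-10547871 on the plus strand and the second is chr5:14164424-14164523 on the minus strand.
merge_AT4G19310_AT4G19320: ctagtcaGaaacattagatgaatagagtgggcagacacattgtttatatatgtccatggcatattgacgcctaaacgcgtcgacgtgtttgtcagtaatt
merge_AT5G36020_AT5G36030: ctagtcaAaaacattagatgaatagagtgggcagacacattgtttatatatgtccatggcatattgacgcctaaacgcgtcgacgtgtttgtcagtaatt

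The merged locus of AT2G47020 and AT2TE88030 was higher in every mutant by a small margin. Wild-type libraries held 55.7, 57.9, 55.7, 52.2 and 54.5 CPM, mbd5 mbd6 libraries 66.0, 69.0, 65.9, 61.6 and 64.7, and sln libraries 60.4, 65.0, 65.5, 63.0 and 65.3. Values in acd15.5 were 62.9, 70.4, 68.1, 63.6 and 66.1 CPM, and those in acd21.4 69.2, 70.7, 75.5, 66.9 and 66.8. The acd15.5 acd21.4 libraries had 65.4, 66.3, 68.7, 66.9 and 64.2 CPM, and the acd15.5 acd21.4 sln libraries 59.8, 70.3, 68.2, 61.3 and 65.9. All 30 mutant libraries lay above all 5 wild-type libraries. The log2 change ran from 0.21 ± 0.05 (SE) in sln to 0.34 ± 0.05 in acd21.4, with adjusted p between 1.72e-07 and 0.00122 (edgeR quasi-likelihood test, Benjamini-Hochberg over 12106 features), and 5 of the 6 calls were lost in batch 1 alone. Because MBD5 and MBD6 bind methylated CG, the 250 bases before the start of AT2G47020 (chr2:19322508-19322757, minus strand, RefSeq TAIR10.1) are shown. They hold 0 CG pairs, searched as CG, which reads the same on both strands. Of 27444 promoter windows of that length, 96.04% hold at least 1, with a median of 5. The position of AT2TE88030 was not available, and neither it, the gene body nor the start of the merged transcript was searched. Binding or methylation at this locus was not tested.
AT2G47020 promoter window: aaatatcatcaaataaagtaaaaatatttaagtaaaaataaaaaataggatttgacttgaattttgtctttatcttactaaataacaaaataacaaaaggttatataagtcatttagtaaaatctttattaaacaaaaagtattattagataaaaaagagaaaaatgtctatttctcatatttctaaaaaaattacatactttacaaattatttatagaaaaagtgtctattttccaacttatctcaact

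The merged kinase locus merge_AT5G59650_AT5G59660 moved the other way in mbd5 mbd6. Wild-type libraries held 11.8, 12.0, 10.13, 9.28 and 10.4 CPM, and mbd5 mbd6 libraries 8.30, 8.69, 7.02, 8.08 and 7.72. The 2 groups did not overlap, and the log2 change was -0.42 ± 0.09 (adjusted p = 5.03e-04, edgeR). In acd15.5 acd21.4 the level was 10.06 CPM on average, 0.34 ± 0.09 on the log2 scale above mbd5 mbd6 (adjusted p = 0.0247), a call lost in 6 of 10 fits with 1 library left out. In acd15.5 acd21.4 sln the log2 change from wild-type was -0.27 ± 0.09 (adjusted p = 0.0489), and this call was lost in 8 of 10 such fits, with p up to 0.143. The PLDBETA1 locus stayed between 27.4 CPM in mbd5 mbd6 and 31.3 CPM in acd15.5 on average, with 29.0 ± 1.55 CPM (SD, n = 5) in wild-type, and was called in no comparison with wild-type. The SNOR77 locus averaged 10.02 CPM in mbd5 mbd6 and 7.81 CPM in sln, a log2 difference of -0.36 ± 0.10 (adjusted p = 0.0417) that was lost in 8 of 10 leave-one-out fits. The other 4 joined loci were low: the tetratricopeptide repeat locus averaged 1.52 to 1.80 CPM by genotype, the C1 domain locus 1.41 to 2.33 CPM, and the pseudogene loci on chromosomes 4 and 5 0.939 to 1.52 and 0.754 to 1.095 CPM. The ninth merged member, novel_Chr2_merged_2, had no counts in wild-type and is described further on. Of the 10 merged names that are no members, the highest count in any library was between 1 and 29.

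The members took 0.968% to 1.11% of the feature counts of a library, with genotype means between 1.02% and 1.07%. Much of that came from 6 loci, which together held 52.02% to 65.0% of member counts. Their mean levels in wild-type were 1926 CPM for novel_Chr4_coding_185, 1804 CPM for novel_Chr4_coding_16, 1064 CPM for novel_Chr3_coding_116, 951 CPM for novel_Chr5_coding_124, 320 CPM for novel_Chr3_coding_377 and 278 CPM for novel_Chr2_coding_38. None of these 6 was called against wild-type in any mutant. At the limit of the rule, 4 members had a fifth-highest count of 20 and 8 loci outside it had 19, and the first 2 of each by identifier are given. Of the members, novel_Chr1_coding_252 averaged 1.30 CPM in wild-type and 0.483 CPM in acd15.5 acd21.4 sln, and novel_Chr5_coding_116 averaged 0.897 to 1.24 CPM. Of the loci outside, novel_Chr1_coding_112 and novel_Chr1_coding_293, averaged 0.673 to 1.05 and 0.313 to 1.09 CPM by genotype. Members came from all 5 chromosomes (42, 48, 38, 48 and 65 on chromosomes 1 to 5), with 107 at 20 counts or more in all 35 libraries.

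To separate what chose a member from what it shows, members were split by their wild-type counts. In 146 members all 5 wild-type libraries held at least 20 counts. These would be members without any mutant library, and their changes from wild-type were tested. In 62 members 1 to 4 wild-type libraries held that many, and in 33 members none did, so that mutant libraries brought them in. Values of these last 2 classes against wild-type are a description. The split itself uses the wild-type counts that serve as control in the tests of the 146. Near 20 counts it keeps loci that read high in wild-type, which favours falls over rises among the 146. All 241 members passed the filter on low counts of the fit. All 6 comparisons with wild-type share the same 5 control libraries.

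Among the 146 loci present in wild-type, most did not change: 114 were called in no mutant, 12 rose in at least 1, 20 fell in at least 1, and none did both. In mbd5 mbd6, 10 rose (6.85% of the 146, against 4.09% of all features) and 6 fell (4.11% against 1.44%). In sln, 7 rose (4.79% against 4.25%) and 8 fell (5.48% against 1.4%). In acd15.5, 9 rose (6.16% against 3.46%) and 6 fell (4.11% against 1%), and in acd21.4, 8 rose (5.48% against 3.35%) and 5 fell (3.42% against 1.32%). In acd15.5 acd21.4, 9 rose (6.16% against 3.7%) and 7 fell (4.79% against 1.18%), and in acd15.5 acd21.4 sln, 9 rose (6.16% against 3.82%) and 13 fell (8.90% against 2.36%). These shares are of unlike sets, since the 146 had reads in every wild-type library, while the filter on all features did not require wild-type reads. The median log2 change of the 146 was between -0.08 and -0.02 in the 6 mutants. Changes of 2-fold or more among the called loci numbered 1 in mbd5 mbd6, 2 in sln, 4 in acd15.5, 3 in acd21.4, 4 in acd15.5 acd21.4 and 6 in acd15.5 acd21.4 sln. For these counts, and for counts of loci called over several mutants, no share of all features is given, so they show no trait particular to the members. The count of loci that fell in acd15.5 acd21.4 sln was 28 without the 3 libraries that stood apart (28 without its library 1 alone), and that in acd15.5 acd21.4 was 23 (14 without its library 2 alone). The libraries left out had more reads in no feature than their batch-mates, while all wild-type libraries stayed in.

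**Figure D1:**
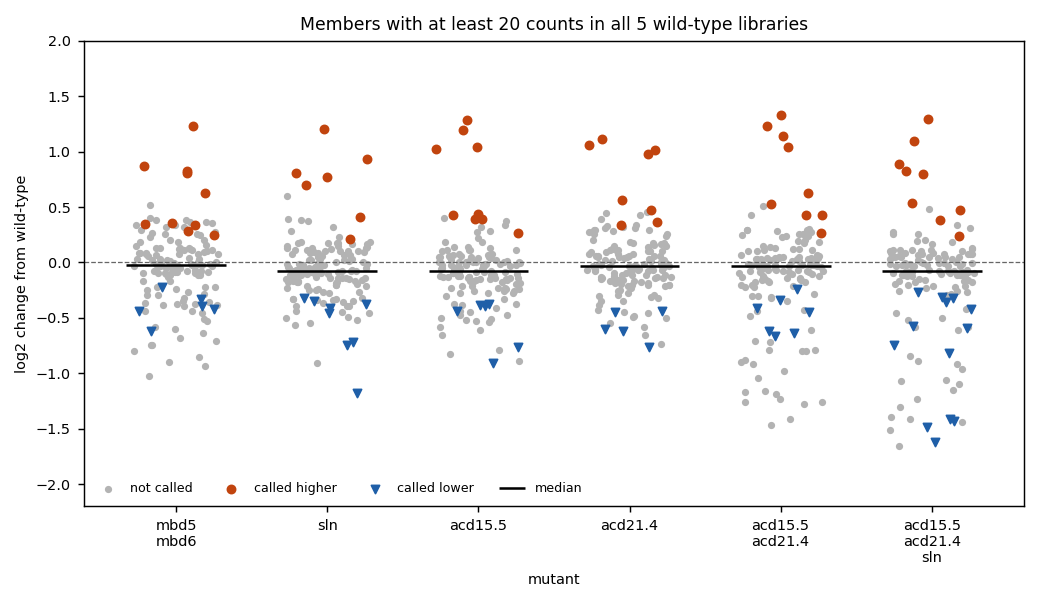
Log2 change from wild-type of the 146 members with at least 20 counts in all 5 wild-type libraries, 1 column of points per mutant, with called members (adjusted p under 0.05) in colour and the median as a line. Medians sit between -0.08 and -0.02, and from 5 to 13 members per mutant are called lower and from 7 to 10 higher.

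Among these, 5 loci rose in all 6 mutants, the merged locus of AT2G47020 and novel_Chr2_coding_131, novel_Chr2_coding_135, novel_Chr3_coding_219 and novel_Chr5_coding_200. For novel_Chr2_coding_131 the wild-type libraries held 12.6, 13.8, 14.1, 13.7 and 15.4 CPM, the mbd5 mbd6 libraries 25.2, 28.1, 21.9, 25.5 and 25.8, and the sln libraries 22.5, 21.5, 25.2, 24.2 and 24.8. Libraries of acd15.5 held 25.5, 29.5, 27.6, 30.6 and 28.6 CPM, and those of acd21.4 28.8, 27.6, 25.5, 29.1 and 25.9. Libraries of acd15.5 acd21.4 held 27.2, 31.1, 30.3, 26.2 and 29.3 CPM, and those of acd15.5 acd21.4 sln 25.8, 25.4, 26.6, 20.1 and 22.5. The lowest mutant library was above the highest wild-type library. The rise was 1.70-fold in sln and 2.06-fold in acd15.5 acd21.4 (log2 0.77 and 1.05, each ± 0.07 SE), with adjusted p of 1.69e-11 and 3.03e-16.

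For novel_Chr5_coding_200, wild-type libraries held 5.35, 4.11, 4.28, 5.43 and 4.93 CPM, mbd5 mbd6 libraries 12.9, 11.2, 11.5, 10.6 and 10.98, and acd15.5 acd21.4 libraries 13.1, 10.9, 10.2, 13.1 and 9.57. The other mutants lay in the same range, from 8.10 CPM in acd15.5 acd21.4 sln to 12.6 CPM in acd15.5, so that no mutant library reached down to wild-type. The log2 change was 1.098 ± 0.11 in acd15.5 acd21.4 sln and 1.23 ± 0.11 in mbd5 mbd6, with adjusted p of 8.60e-11 and 1.80e-12, and none of the 5 comparisons between mutants called this locus. For novel_Chr2_coding_135 the wild-type mean was 6.52 CPM and mutant means ran from 11.5 CPM in mbd5 mbd6 to 16.2 CPM in acd15.5 acd21.4, again without overlap with wild-type. The difference of the latter 2 mutants was 0.50 ± 0.11 on the log2 scale (adjusted p = 0.00375).

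At novel_Chr3_coding_219 the mutants spread out. Wild-type libraries held 20.5, 20.1, 18.6, 17.4 and 16.8 CPM, mbd5 mbd6 libraries 25.0, 22.9, 21.7, 21.42 and 26.5, and sln libraries 32.2, 30.3, 31.3, 27.7 and 29.8. Libraries of acd15.5 held 44.2, 36.2, 35.9, 31.8 and 43.8 CPM, those of acd21.4 42.9, 39.1, 39.5, 34.1 and 39.5, and those of acd15.5 acd21.4 42.9, 43.0, 39.0, 42.6 and 38.1. The acd15.5 acd21.4 sln libraries, at 36.8, 31.6, 35.1, 37.5 and 32.0 CPM, overlapped with sln and lay below acd15.5 acd21.4. Levels thus rose from wild-type through mbd5 mbd6 and sln to acd15.5 acd21.4, with no overlap between neighbours in that order. The log2 change was 0.34 ± 0.08 in mbd5 mbd6 (adjusted p = 0.00205) and 1.14 ± 0.07 in acd15.5 acd21.4 (adjusted p = 1.65e-17). The sln libraries were 0.36 ± 0.07 above mbd5 mbd6 (adjusted p = 0.00137), and the acd15.5 acd21.4 libraries 0.80 ± 0.07 above it (adjusted p = 2.18e-11). Rises called in 5 mutants were found for novel_Chr1_coding_279, all but sln, and novel_Chr5_coding_245, all but acd15.5 acd21.4 sln, with log2 changes of 0.35 to 0.52 where called.

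**Figure D2:**
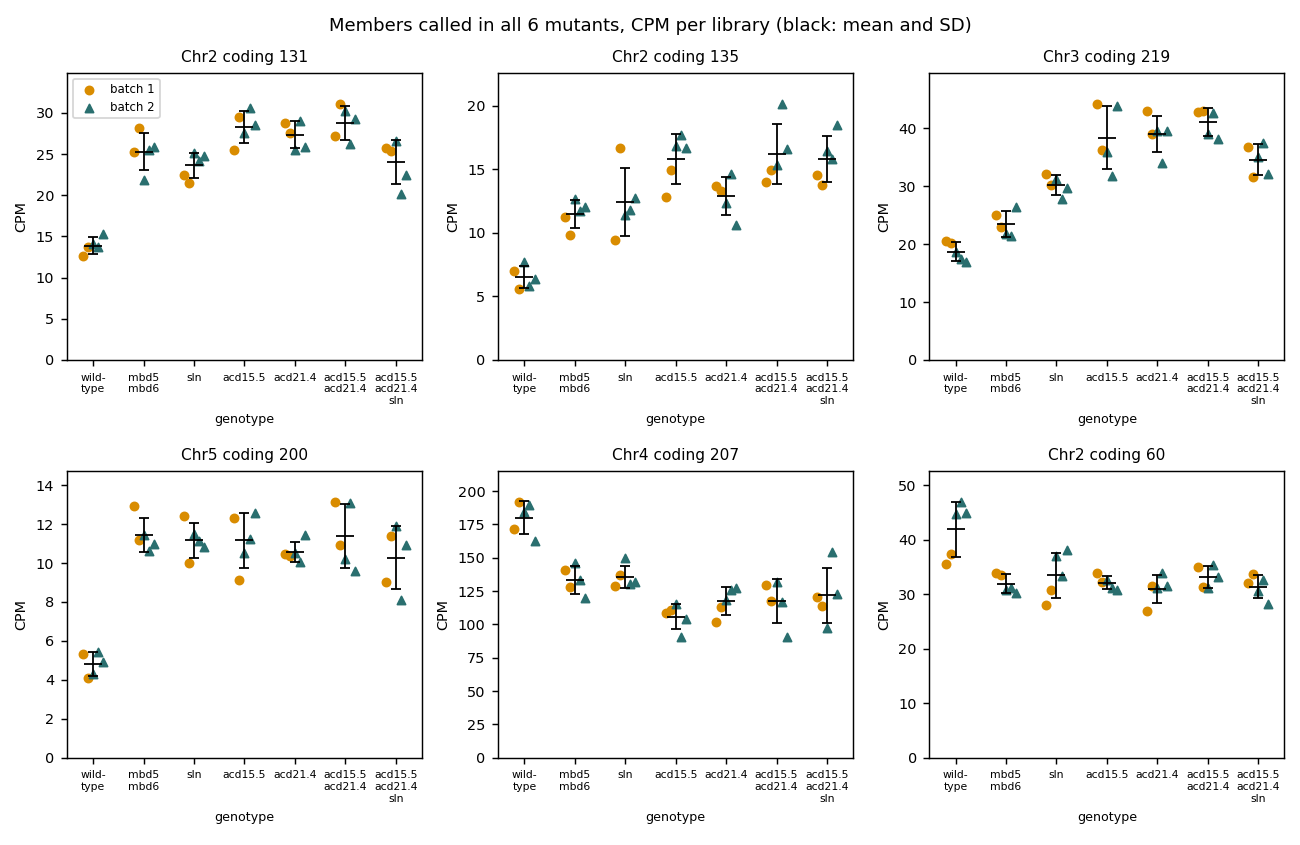
CPM (y axis) in each library of the 7 genotypes (x axis) for 4 loci called higher and 2 called lower in all 6 mutants, with mean ± SD over 5 libraries and the batch shown by the symbol. For novel_Chr2_coding_131 every mutant library is above the highest wild-type library, at 15.4 CPM.

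There were 2 loci that fell in all 6 mutants. For novel_Chr4_coding_207 the wild-type libraries held 172, 192, 185, 189 and 163 CPM, the mbd5 mbd6 libraries 140, 128, 146, 133 and 120, and the acd15.5 libraries 109, 111, 116, 90.4 and 104. The highest mutant library held 154 CPM, in acd15.5 acd21.4 sln, below the lowest wild-type library. The log2 change ran from -0.41 ± 0.10 in sln to -0.76 ± 0.10 in acd15.5, with adjusted p of 0.00681 and 7.98e-07. For novel_Chr2_coding_60 the wild-type libraries held 35.6, 37.4, 44.7, 47.0 and 44.9 CPM and mutant means were 31.0 to 33.4 CPM. Here the groups overlapped in sln, where the highest library held 38.1 CPM. Log2 changes were -0.32 to -0.44 (SE 0.07), with adjusted p from 7.77e-06 to 0.001.

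Other loci differed between mutants, by tests of that difference. At novel_Chr2_coding_53, wild-type libraries held 16.3, 18.9, 16.3, 15.46 and 17.8 CPM, sln libraries 26.7, 29.1, 32.9, 28.8 and 30.1, and acd15.5 acd21.4 sln libraries 30.9, 31.7, 30.2, 31.8 and 25.9. The acd15.5 acd21.4 libraries, at 17.8, 17.2, 18.1, 16.9 and 16.6 CPM, lay within the wild-type range, and the acd15.5 libraries, at 23.9, 25.5, 24.3, 23.0 and 17.9 CPM, were in between but for 1 library. The 2 genotypes with the sln mutation were thus the high ones, with no overlap with any other. The log2 change was 0.80 ± 0.07 in sln and 0.82 ± 0.08 in acd15.5 acd21.4 sln (adjusted p = 5.59e-12 and 3.34e-12). The difference of acd15.5 acd21.4 sln from acd15.5 acd21.4 was 0.79 ± 0.07 (adjusted p = 7.83e-11) and that of sln from mbd5 mbd6 0.57 ± 0.07 (adjusted p = 1.76e-07). The rise in acd15.5 was 0.44 ± 0.08 (adjusted p = 2.24e-05), and acd15.5 was 0.36 ± 0.08 above acd21.4 (adjusted p = 0.0102), a difference whose p reached 0.0689 with 1 library left out.

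At novel_Chr4_coding_371 the high genotype was mbd5 mbd6. Its libraries held 18.0, 19.1, 25.6, 29.3 and 28.2 CPM against 9.99, 15.01, 14.99, 12.5 and 16.2 in wild-type, a log2 change of 0.81 ± 0.13 (adjusted p = 4.00e-05). The sln libraries were 0.71 ± 0.13 lower than mbd5 mbd6 on the log2 scale and the acd15.5 acd21.4 libraries 0.77 ± 0.13 lower (adjusted p = 6.00e-04 and 3.02e-04). At novel_Chr3_coding_402 the low genotype was acd15.5 acd21.4, with 8.29, 10.8, 11.5, 8.73 and 8.17 CPM against 13.1, 14.9, 17.5, 14.4 and 15.3 in wild-type and 14.5, 16.8, 15.9, 17.8 and 12.7 in acd15.5 acd21.4 sln. The first difference was -0.67 ± 0.11 (adjusted p = 1.13e-05) and acd15.5 acd21.4 sln was 0.70 ± 0.11 above acd15.5 acd21.4 (adjusted p = 2.34e-05). At novel_Chr1_coding_171 the fall was called in sln, with 1.05, 1.58, 2.69, 2.09 and 2.27 CPM against 2.94 to 3.66 in wild-type and 3.46 to 4.47 in mbd5 mbd6. No sln library reached either range, and the difference from mbd5 mbd6 was -1.08 ± 0.16 (adjusted p = 8.26e-06). The acd15.5 acd21.4 sln libraries held 1.91, 1.59, 2.49, 3.07 and 2.58 CPM, which overlapped with both sln and wild-type. Their log2 change from wild-type was -0.50 ± 0.17 (adjusted p = 0.0766) and their difference from sln 0.24 ± 0.18 (adjusted p = 0.497).

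The remaining loci of this class with the largest called changes moved by smaller or less stable amounts. Rises were called for novel_Chr3_coding_318 in mbd5 mbd6 (log2 0.63 ± 0.13, adjusted p = 7.72e-04) and novel_Chr4_coding_174 in acd15.5 acd21.4 (0.63 ± 0.13, adjusted p = 4.88e-04). Falls were called for novel_Chr1_coding_271 in 4 mutants, with the largest in acd15.5 acd21.4 (-0.41 ± 0.08, adjusted p = 1.83e-04), and for novel_Chr4_coding_275 in 4, between -0.36 and -0.45. The fall of novel_Chr4_coding_163 was called in acd15.5 (-0.91 ± 0.18, adjusted p = 4.38e-04), acd21.4 and acd15.5 acd21.4 sln, and that of novel_Chr1_coding_31 in mbd5 mbd6 (-0.62 ± 0.15, adjusted p = 0.00478), sln and acd15.5 acd21.4 sln. The call of novel_Chr1_coding_31 in sln was lost in 8 of 10 fits with 1 library left out (p up to 0.227), and so was that of novel_Chr4_coding_275 in acd15.5 acd21.4 sln (p up to 0.152). Other calls that left the threshold in such fits included those of novel_Chr5_coding_423 in acd21.4 (p up to 0.0740), novel_Chr5_coding_480 in sln (p up to 0.158), novel_Chr4_coding_339 in acd15.5 acd21.4 (p up to 0.182) and novel_Chr4_coding_24 in sln. At novel_Chr4_coding_24, wild-type libraries held 8.42, 6.21, 9.97, 32.1 and 11.0 CPM and sln libraries 5.54 to 6.45, so that 1 wild-type library carried much of the log2 change of -1.18 ± 0.31 (adjusted p = 0.0162). Its p was between 0.0512 and 0.163 without wild-type library 4, sln library 4 or sln library 5.

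The largest falls in acd15.5 acd21.4 sln belonged to loci that varied between libraries of 1 genotype. At novel_Chr1_coding_140 the wild-type libraries held 7.63, 8.05, 7.08, 8.33 and 4.79 CPM and the acd15.5 acd21.4 sln libraries 7.49, 0.335, 1.39, 1.72 and 1.32. Library 1 of acd15.5 acd21.4 sln lay within the wild-type range and the other 4 below it. The log2 change was -1.62 ± 0.43 (adjusted p = 0.0171), and -2.52 without the 3 libraries that stood apart. That call was lost in 3 of 10 leave-one-out fits, without acd15.5 acd21.4 sln library 2 or 5 or wild-type library 4 (p from 0.0559 to 0.0649). At novel_Chr1_coding_115 the acd15.5 acd21.4 sln libraries held 5.88, 0.168, 1.46, 1.23 and 1.37 CPM against 5.04, 7.80, 6.01, 6.31 and 3.31 in wild-type, a log2 change of -1.49 ± 0.42 (adjusted p = 0.0263) that was -2.32 without those libraries and left the threshold in 7 of 10 leave-one-out fits. At novel_Chr5_coding_58 they held 3.97, 0.419, 1.17, 0.614 and 1.09 CPM against 4.48, 3.77, 3.30, 4.73 and 3.45, a change of -1.43 ± 0.35 (adjusted p = 0.00901), or -2.12 without the 3 libraries. At novel_Chr3_coding_19 they held 1.32, 0.168, 0.805, 0.491 and 0.687 CPM against 1.81, 2.26, 1.73, 2.15 and 1.62, a change of -1.41 ± 0.36 (adjusted p = 0.00901), and here no library overlapped with wild-type.

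These levels moved with the share of reads in no feature, that is, reads that aligned but overlapped no annotated feature of the counting file. In 30 of the 241 members (12.4%) Pearson's r between CPM and that share over the 35 libraries was above 0.8, against 288 of 12106 features (2.38%). This limit and relation were chosen after the data had been seen, and both quantities come from the same library. Over the 30 loci r was 0.817 to 0.963 and Spearman's rho 0.790 to 0.960. As r chose these loci, it is given with no test. Within batch 1 r was 0.771 to 0.991, within batch 2 0.656 to 0.929, after removal of genotype means 0.795 to 0.958, and without the 2 libraries farthest from the median 0.786 to 0.956. Among the 4 loci above, r was 0.93 for novel_Chr1_coding_140, 0.92 for novel_Chr1_coding_115, 0.87 for novel_Chr5_coding_58 and 0.74 for novel_Chr3_coding_19.

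The share of reads in no feature also differed between genotypes. It averaged 0.763% ± 0.170 (SD, n = 5) in wild-type, 0.493% ± 0.224 in acd15.5 acd21.4 and 0.447% ± 0.266 in acd15.5 acd21.4 sln, and 0.606% to 0.684% in the other mutants. In the 3 libraries that stood apart it was 0.952%, 0.844% and 0.889%, against 0.369%, 0.327% and 0.218% in their batch-mates. They were taken on a component set to rise with this share, so that difference is not independent of the choice. The median log2 change of the 30 loci was -1.32 in acd15.5 acd21.4 sln, -1.11 in acd15.5 acd21.4 and -0.34 to -0.62 in the others. Of the 16 wild-type-present loci with a log2 change below -1 in acd15.5 acd21.4 sln, 15 were among the 30, and so were all 10 in acd15.5 acd21.4. Most of these changes were not called. In acd15.5 acd21.4 sln only those of novel_Chr1_coding_140, novel_Chr1_coding_115, novel_Chr5_coding_58 and novel_Chr3_coding_19 were, and in acd15.5 acd21.4 none was. With this share as a term of the fit, the change of novel_Chr1_coding_140 in acd15.5 acd21.4 sln was -0.89 (adjusted p = 0.00983), that of novel_Chr1_coding_115 -0.75 (adjusted p = 0.0312), that of novel_Chr5_coding_58 -0.84 (adjusted p = 0.0101) and that of novel_Chr3_coding_19 -0.89 (adjusted p = 0.0969). The changes were thus smaller, with the first 3 still called lower and the last not. Of the 30 loci, 3 were called lower in acd15.5 acd21.4 sln without this term and 3 with it. The part that this share plays in the falls was not tested beyond that fit.

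**Figure D3:**
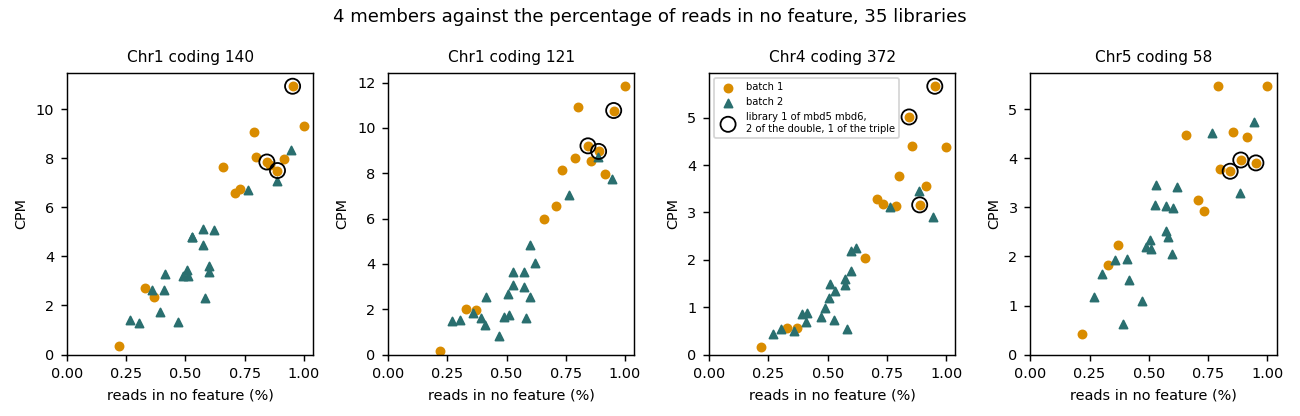
CPM (y axis) against the percentage of reads in no feature (x axis) in each of the 35 libraries for 4 loci, with the batch shown by colour and symbol and the 3 libraries that stood apart circled. Pearson's r was 0.934 for novel_Chr1_coding_140, 0.926 for novel_Chr1_coding_121, 0.917 for novel_Chr4_coding_372 and 0.872 for novel_Chr5_coding_58.

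Many of these loci also differed between batches. Between them 68 members were called (28.2%, against 17.2% of all features). Batch 2 was higher than batch 1 in 36 members (14.9%, against 8.36% of all features) and lower in 32 (13.3% against 8.86%). The 4 largest differences were falls, in novel_Chr1_coding_121 (7.26 ± 3.58 CPM in batch 1 and 3.19 ± 2.21 in batch 2, SD, n = 14 and 21, log2 -1.30 ± 0.28, adjusted p = 0.00208), novel_Chr4_coding_372 (-1.18 ± 0.30, adjusted p = 0.00717), novel_Chr5_coding_338 (-1.15 ± 0.36, adjusted p = 0.0289) and novel_Chr1_coding_72 (-1.12 ± 0.15, adjusted p = 7.20e-06). With that share added to the fit as a covariate these were -0.50, -0.29, -0.03 and -0.83. Of the 30 loci that followed the share, 25 were called between batches, and 1 with the covariate. They were chosen by their relation to that share, which averaged 0.719% in batch 1 and 0.539% in batch 2. The loss of these calls thus follows in part from the choice, and no share of all features is set beside it. No member was called for a genotype effect that differs between batches (edgeR, DESeq2 also 0), with 7 of 241 at an unadjusted p under 0.05 (2.905%), against 475 of 12106 features.

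In the 33 loci with under 20 counts in every wild-type library, the levels below chose them, so they are given with no test against wild-type. Together they held 0.00177% ± 0.000103 of counts in wild-type (SD, n = 5), 0.00557% in sln, 0.00561% in acd15.5 acd21.4 sln, 0.00647% in mbd5 mbd6, 0.00744% in acd21.4, 0.00924% in acd15.5 and 0.00955% in acd15.5 acd21.4. In 15 of them every library of all 6 mutants lay above every wild-type library, and in 11 no mutant did so. In 12 the mean CPM was within 2-fold of wild-type in all mutants. The choice of loci low in wild-type favours such gaps. No share of all features is set beside these counts, so they show no trait particular to the members. By mean CPM, acd15.5 acd21.4 was the highest mutant for 13 of the 33, sln the lowest for 12 and acd15.5 acd21.4 sln the lowest for 9. They lay on all 5 chromosomes, 2, 8, 7, 9 and 7 of them.

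**Figure D4:**
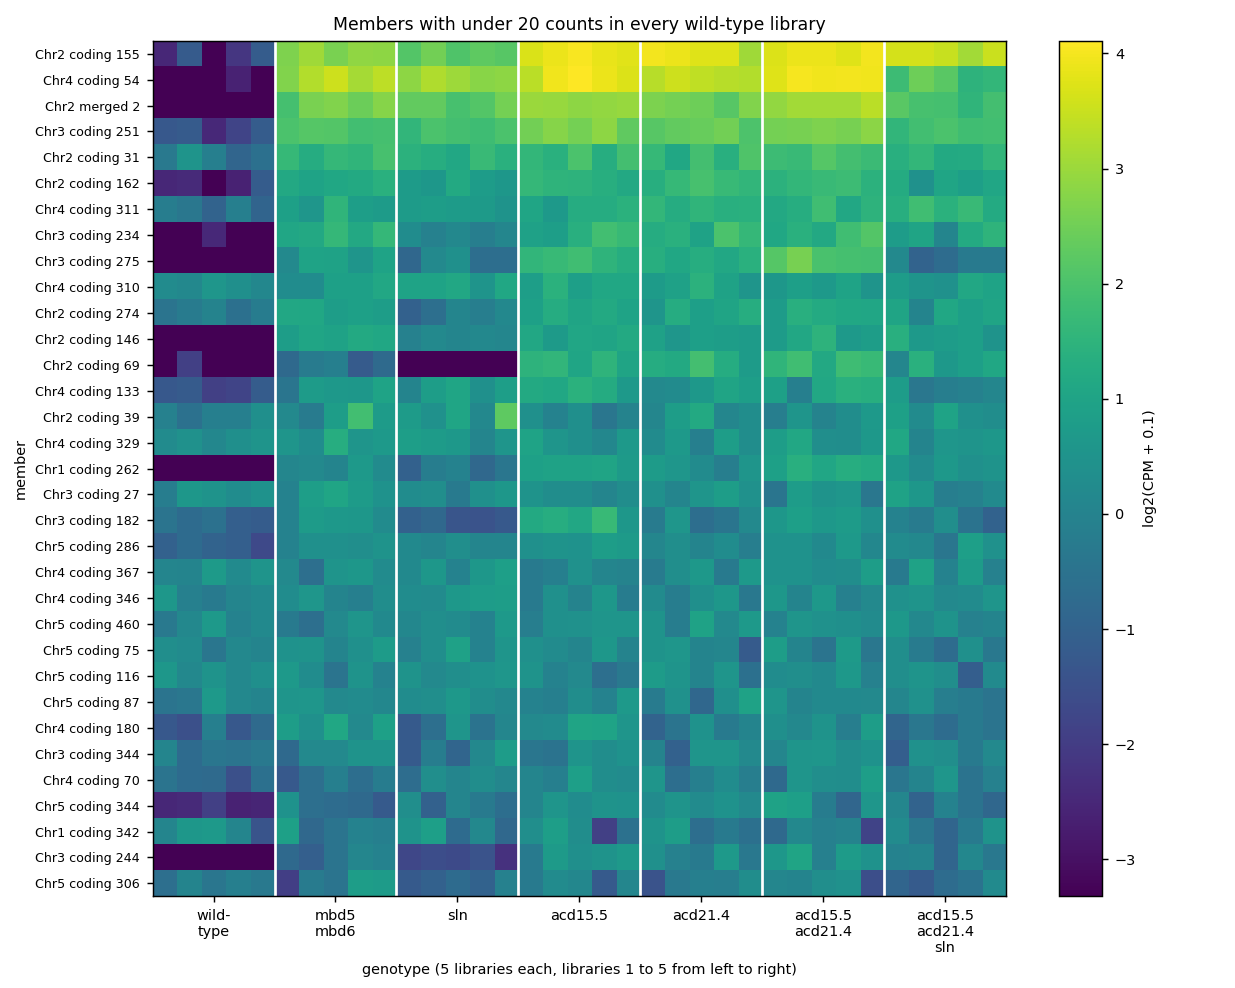
Heat map of log2(CPM + 0.1) for the 33 members with under 20 counts in every wild-type library (rows, sorted by mean CPM over the 30 mutant libraries) in the 35 libraries (columns, by genotype). Dark is low and light is high: novel_Chr2_coding_155, novel_Chr4_coding_54 and novel_Chr2_merged_2, at the top, are dark in wild-type and light in the mutants, and in 12 members the mean stays within 2-fold of wild-type.

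Of these, 5 had no count in any wild-type library. One was novel_Chr2_merged_2, with 3.67, 6.07, 6.40, 5.34 and 6.73 CPM in mbd5 mbd6, 4.92, 4.91, 3.78, 4.25 and 5.77 in sln, and 7.80, 7.64, 7.14, 7.32 and 7.73 in acd15.5. Libraries of acd21.4 held 6.19, 5.80, 5.40, 4.39 and 6.39 CPM, those of acd15.5 acd21.4 7.33, 8.39, 8.35, 8.33 and 9.99, and those of acd15.5 acd21.4 sln 4.48, 3.77, 3.66, 2.82 and 3.61. Against the limit of 3 counts over the wild-type group, this is at least 83.1-fold higher in acd15.5 acd21.4 sln and at least 190-fold higher in acd15.5 acd21.4. The same bounds lay between 21.43-fold in sln and 43.8-fold in acd15.5 for novel_Chr2_coding_146, between 14.0-fold in sln and 48.8-fold in acd15.5 acd21.4 for novel_Chr1_coding_262, between 15.46-fold in acd15.5 acd21.4 sln and 92.3-fold in acd15.5 acd21.4 for novel_Chr3_coding_275, and between 4.23-fold in sln and 31.2-fold in acd15.5 acd21.4 for novel_Chr3_coding_244. These limits cover only the counting error of the wild-type group and take the mutant counts as exact.

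A further 3 had 1 or 2 wild-type counts in all. For novel_Chr4_coding_54, with 1 count, the ratio of pooled CPM was 615 in mbd5 mbd6 (95% counting interval 110 to 24348). Its libraries held 6.46, 9.53, 11.6, 8.49 and 10.3 CPM in mbd5 mbd6, 7.16, 9.19, 8.07, 6.82 and 7.06 in sln, and 3.31, 5.45, 4.54, 2.70 and 2.92 in acd15.5 acd21.4 sln. Those of acd15.5 held 10.07, 15.49, 17.2, 14.6 and 13.0 CPM, those of acd21.4 9.84, 11.5, 10.4, 9.74 and 9.48, and those of acd15.5 acd21.4 13.3, 15.96, 15.4, 15.8 and 15.3. Levels were thus lowest in acd15.5 acd21.4 sln and highest in acd15.5 and acd15.5 acd21.4, with no overlap between the latter and acd15.5 acd21.4 sln. For novel_Chr3_coding_234, also with 1 count, mean levels were 0.958 CPM in sln and 1.89 to 2.91 CPM in the other mutants. The locus next in number on chromosome 4, novel_Chr4_coding_55, was picked out after its values were seen: wild-type libraries held 1.20 to 2.68 CPM and mutant libraries 82.1 to 172 CPM.

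For novel_Chr2_coding_69, with 2 wild-type counts, every sln library was at 0. The mbd5 mbd6 libraries held 0.479, 0.747, 0.826, 0.342 and 0.496 CPM, the acd15.5 libraries 2.70, 2.87, 1.96, 2.75 and 1.93, and the acd21.4 libraries 2.34, 2.19, 3.57, 2.31 and 1.60. The acd15.5 acd21.4 libraries held 2.79, 3.46, 2.16, 3.39 and 3.11 CPM, and the acd15.5 acd21.4 sln libraries 0.955, 2.52, 1.46, 1.72 and 2.06. The locus thus had reads in the triple mutant that lacks SLN and none in the single sln mutant. Against the limit of 3 counts over the sln group, pooled CPM was at least 48.9-fold higher in acd15.5 acd21.4 sln, at least 15.4-fold higher in mbd5 mbd6 and at least 84.2-fold higher in acd15.5 acd21.4. This limit covers only the counting error of the sln group.

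The other loci named in this class had wild-type reads. For novel_Chr2_coding_155 wild-type libraries held 0.0787, 0.336, 0, 0.126 and 0.352 CPM, mbd5 mbd6 libraries 6.30, 8.13, 5.99, 7.25 and 7.12, and sln libraries 4.27, 5.62, 4.07, 4.73 and 4.43. Libraries of acd15.5 held 12.8, 14.7, 16.4, 14.4 and 13.7 CPM, those of acd21.4 15.8, 14.7, 13.5, 13.3 and 8.11, those of acd15.5 acd21.4 13.1, 14.9, 14.7, 13.3 and 15.8, and those of acd15.5 acd21.4 sln 12.2, 12.2, 11.2, 8.35 and 11.4. All 4 genotypes with an acd15.5 or acd21.4 mutation thus lay at or above the highest mbd5 mbd6 library, 8.13 CPM, apart from 1 acd21.4 library at 8.11 CPM. For novel_Chr3_coding_251 the mean was 0.255 CPM in wild-type and 3.47 CPM in acd15.5 acd21.4 sln to 6.17 CPM in acd15.5 acd21.4. For novel_Chr2_coding_162 the means were 0.116 CPM in wild-type and 1.65 to 3.04 CPM in the mutants, for novel_Chr4_coding_133 0.271 and 0.985 to 2.11 CPM, and for novel_Chr2_coding_31 0.776 and 2.54 to 3.53 CPM. Lower contrasts were found in novel_Chr4_coding_311, novel_Chr4_coding_310 and novel_Chr2_coding_39, with 0.623, 1.14 and 0.859 CPM in wild-type and mutant means of 1.54 to 2.77, 1.57 to 2.02 and 0.979 to 2.12 CPM.

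Comparisons between 2 mutants do not use wild-type, and members were tested in them as they stand. Between sln and mbd5 mbd6, 22 of the 241 members were called (9.13%, against 2.97% of all features). The sln libraries were higher in 4 and lower in 18 (1.66% and 7.47%, against 1.04% and 1.92%). Loci that would be members without the sln and mbd5 mbd6 libraries numbered 228, with 4 higher and 17 lower. The largest differences, beside novel_Chr2_coding_69, were in novel_Chr3_coding_182 (log2 -1.85 ± 0.29, adjusted p = 1.32e-05), novel_Chr3_coding_244 (-1.80 ± 0.39, adjusted p = 0.00382) and novel_Chr3_coding_234 (-1.35 ± 0.23, adjusted p = 1.13e-04). At novel_Chr3_coding_182 the sln libraries held 0.394, 0.475, 0.291, 0.270 and 0.324 CPM, all within or below the wild-type range of 0.352 to 0.629, while mbd5 mbd6 libraries held 0.877 to 1.59. At novel_Chr2_coding_274 the sln libraries held 0.394, 0.554, 0.945, 0.810 and 1.01 CPM, next to 0.568 to 0.906 in wild-type and 1.65 to 2.07 in mbd5 mbd6.

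Between acd15.5 acd21.4 and mbd5 mbd6, 17 members were called (7.05%, against 1.58% of all features). The acd15.5 acd21.4 libraries were higher in 13 and lower in 4 (5.39% and 1.66%, against 1.15% and 0.43%), with the same 13 and 4 counts among the 226 loci chosen without these libraries. Among the higher ones were novel_Chr2_coding_69 (log2 2.42 ± 0.27, adjusted p = 1.56e-08), novel_Chr3_coding_275 (1.39 ± 0.19, adjusted p = 1.76e-06), novel_Chr2_coding_155 (1.04 ± 0.12, adjusted p = 6.06e-08), novel_Chr4_coding_54 (0.72 ± 0.13, adjusted p = 6.96e-04), novel_Chr3_coding_251 (0.66 ± 0.12, adjusted p = 2.37e-04) and novel_Chr2_merged_2 (0.59 ± 0.12, adjusted p = 0.00286). Lower were novel_Chr5_coding_282 and novel_Chr3_coding_365 by the widest margin. At novel_Chr3_coding_365 the mbd5 mbd6 libraries held 2.55, 2.05, 2.79, 2.12 and 1.60 CPM and the acd15.5 libraries 2.19, 2.52, 2.19, 2.04 and 1.61. The acd21.4 libraries held 0.826, 1.18, 0.916, 1.04 and 0.457 CPM, below every acd15.5 library, and acd15.5 acd21.4 libraries 1.27, 0.912, 0.835, 0.948 and 0.548. The difference of acd15.5 acd21.4 from mbd5 mbd6 was -1.28 ± 0.21 (adjusted p = 5.53e-05).

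The acd15.5 and acd21.4 single mutants differed in 3 members (1.24%, against 0.24% of all features), all higher in acd15.5 (0.165% of all features were) and 0 lower (0.0743%). They were novel_Chr3_coding_182 (log2 1.38 ± 0.23, adjusted p = 3.81e-04), novel_Chr3_coding_365 (1.23 ± 0.22, adjusted p = 6.61e-04) and novel_Chr2_coding_53, described above. At novel_Chr3_coding_182 the acd15.5 libraries held 2.19, 2.39, 2.096, 3.14 and 1.42 CPM and the acd21.4 libraries 0.757, 1.41, 0.549, 0.638 and 1.03, so that the groups met but did not overlap.

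At novel_Chr5_coding_282, which had at least 20 counts in some wild-type libraries, the 3 acd genotypes without the sln mutation were low. Wild-type libraries held 1.102, 2.097, 2.06, 1.14 and 1.62 CPM, mbd5 mbd6 libraries 1.36, 1.96, 1.34, 1.64 and 2.21, and sln libraries 1.58, 1.58, 1.60, 1.49 and 1.51. The acd15.5 libraries held 0.146, 0.273, 0.580, 0.440 and 0.258 CPM, the acd21.4 libraries 0.206, 0.313, 0.458, 0.399 and 0.343, and the acd15.5 acd21.4 libraries 0.0797, 0.182, 0.209, 0.299 and 0.487. The acd15.5 acd21.4 sln libraries lay within the wild-type range, at 1.54, 1.26, 1.83, 1.96 and 1.89 CPM. Levels in the 3 low genotypes did not overlap with those in the other 4. The difference of acd15.5 acd21.4 sln from acd15.5 acd21.4 was 2.64 ± 0.29 on the log2 scale (adjusted p = 5.25e-09), and that of acd15.5 acd21.4 from mbd5 mbd6 -2.67 ± 0.29 (adjusted p = 2.50e-09).

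Between acd15.5 acd21.4 sln and acd15.5 acd21.4, 17 members were called (7.05%, against 2.14% of all features). The acd15.5 acd21.4 sln libraries were higher in 4 and lower in 13 (1.66% and 5.39%, against 0.71% and 1.43%). Of the 33 loci low in wild-type, 9 were lower and 0 higher, with no share of all features set beside these counts. Among the 9, the calls of novel_Chr2_coding_162 and novel_Chr2_coding_69 were each lost in 7 of 10 leave-one-out fits. That of novel_Chr4_coding_133 was lost in 6 and that of novel_Chr3_coding_182 in 5. The largest falls were in novel_Chr3_coding_275, novel_Chr4_coding_54 and novel_Chr2_merged_2. At novel_Chr3_coding_275 the acd15.5 acd21.4 libraries held 4.38, 5.93, 3.83, 3.69 and 3.60 CPM, the acd15.5 acd21.4 sln libraries 1.03, 0.419, 0.512, 0.737 and 0.744, and the sln libraries 0.460, 1.03, 1.24, 0.540 and 0.540. The triple mutant was thus near sln and away from acd15.5 acd21.4, with a log2 difference of -2.59 ± 0.22 from the latter (adjusted p = 1.64e-11) and of -0.07 ± 0.29 from sln (adjusted p = 0.961). At novel_Chr4_coding_54 it was below both, by a log2 difference of -1.99 ± 0.15 from acd15.5 acd21.4 (adjusted p = 4.01e-12) and of -0.9999 ± 0.16 from sln (adjusted p = 8.52e-05). At novel_Chr2_merged_2 the difference from acd15.5 acd21.4 was -1.19 ± 0.13 (adjusted p = 1.56e-08).

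Between acd15.5 acd21.4 sln and sln, 20 members were called (8.30%, against 4.25% of all features). The acd15.5 acd21.4 sln libraries were higher in 15 and lower in 5 (6.22% and 2.07%, against 2.81% and 1.45%). These counts were 15 and 5 also among the 234 loci chosen without those libraries. Higher were novel_Chr2_coding_69, novel_Chr3_coding_244 (log2 1.94 ± 0.39, adjusted p = 0.00152), novel_Chr2_coding_155 (1.28 ± 0.13, adjusted p = 2.13e-09) and novel_Chr2_coding_274 (1.16 ± 0.22, adjusted p = 4.34e-04). At novel_Chr2_coding_155 the triple mutant did not differ from acd15.5 acd21.4 beyond the threshold (-0.36 ± 0.12, adjusted p = 0.1001). Loci low in wild-type thus fell on both sides: novel_Chr3_coding_275 in the triple mutant was near sln, and novel_Chr2_coding_155 was nearer to acd15.5 acd21.4. Without the 3 libraries that stood apart, the comparison with sln called 52 members in place of 20. The share of all features called in that fit is not given here, so this rise may not be particular to the members.

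**Figure D5:**
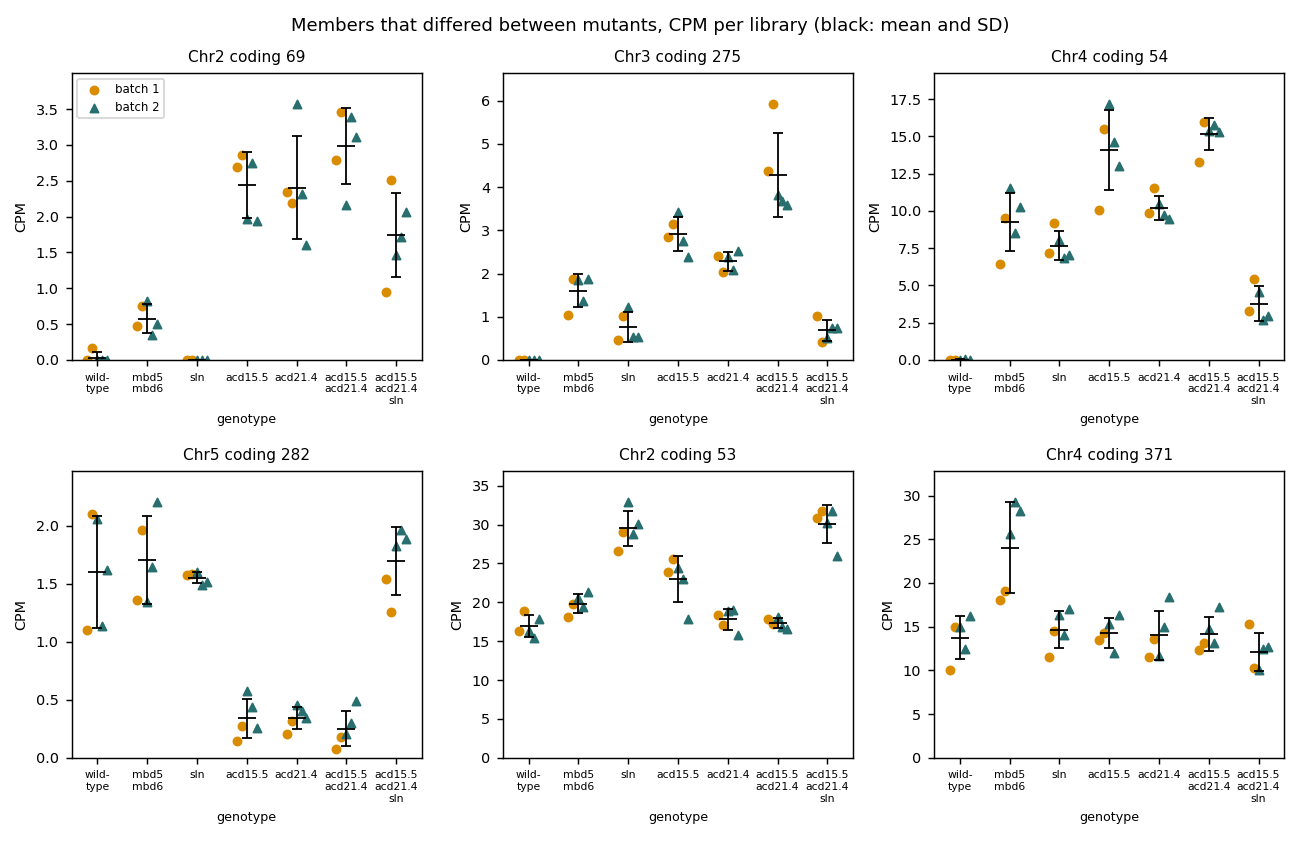
CPM (y axis) in each library of the 7 genotypes (x axis) for 6 loci that differed between mutants, with mean ± SD over 5 libraries and the batch shown by the symbol. At novel_Chr2_coding_69 all sln libraries are at 0, and at novel_Chr5_coding_282 the acd15.5, acd21.4 and acd15.5 acd21.4 libraries lie at or below 0.580 CPM.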

How the data were processed

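Gene counts were deposited by the authors, 1 file per library, as raw counts per feature. Per the submitters' processing notes, Trim Galore, STAR and HTSeq were among the tools and TAIR10 the build; no tool version, strand setting or origin of the added loci was given in the sources used here. The 5 summary lines of each file (reads in no feature, ambiguous reads and the like) stayed out of library sizes. Reads in no feature made up 0.218% to 1.0005% of the reads in a feature or in none. Ambiguous reads made up 0.108% to 0.135% when they were added to that sum. Other reads entered neither percentage.

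Counts were fitted over the whole table in R 4.3.3 with edgeR 4.0.16 (TMM, filterByExpr with minimum count 10 and minimum total 15, robust quasi-likelihood fit and test, genotype and batch as terms, all 35 libraries). Benjamini-Hochberg adjustment ran over 12106 features, and an adjusted p under 0.05 was called. The script was tested on simulated data. Replicates differed by more than sampling noise in all 70 pairs checked (chi-square per degree of freedom 2.70 to 26.4). DESeq2 1.42.0 and other settings were alternatives. Sequences were compared with blastn 2.17.0.

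Members and lists were chosen with earlier results of these data known. The loci named by rule are the merged members, the 6 highest in wild-type, the 5 largest called rises and falls per mutant among wild-type-present members, the 15 highest in mutants among wild-type-low members, the 4 largest differences per pair of mutants and between batches, and those at the count limit, 63 members in all. Also named were novel_Chr1_coding_279, novel_Chr5_coding_245, novel_Chr1_coding_262 and novel_Chr4_coding_55, which these rules did not pick.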

Additional observations from a re-analysis of the deposited data

Results flagged for a closer look

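In 42 of 448 groups of 5 libraries examined for the named loci, 1 library lay far from the other 4, by a gap of more than 0.71 of the group's range (Dixon's limit for 5 values). Chance flags about 1 in 20 groups. Each value below is the CPM of that library.

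Of these, 16 fell on the 3 batch 1 libraries that stood apart. In mbd5 mbd6 library 1, high values were 8.45 at novel_Chr1_coding_115, 10.9 at novel_Chr1_coding_140, 5.10 at novel_Chr4_coding_339 and 3.11 at novel_Chr5_coding_338. In acd15.5 acd21.4 library 2, they were 5.11 at novel_Chr1_coding_115, 9.21 at novel_Chr1_coding_121, 7.84 at novel_Chr1_coding_140, 5.01 at novel_Chr4_coding_372 and 2.83 at novel_Chr5_coding_338. In acd15.5 acd21.4 sln library 1, they were 5.88 at novel_Chr1_coding_115, 8.96 at novel_Chr1_coding_121, 7.49 at novel_Chr1_coding_140, 3.60 at novel_Chr1_coding_72, 3.16 at novel_Chr4_coding_372, 2.20 at novel_Chr5_coding_338 and 3.97 at novel_Chr5_coding_58. These libraries also had a high share of reads in no feature for their genotype. That follows in part from how they were taken, on a component set to rise with that share. The part of that share in these values was not tested.

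Another 8 fell on other libraries of acd15.5 acd21.4 sln. Library 4 was high at novel_Chr2_coding_38 (319), novel_Chr3_coding_116 (1532) and novel_Chr5_coding_124 (1335), which are among the 6 most abundant members, and low at novel_Chr2_coding_155 (8.35) and novel_Chr5_coding_116 (0.368). Library 2 was high at novel_Chr1_coding_252 (0.839), library 3 was high at merge_AT5G59650_AT5G59660 (10.54), and library 5 was low at novel_Chr2_coding_53 (25.9).

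In wild-type, 3 flags rest on single reads or pairs of reads: library 2 at novel_Chr2_coding_69 (0.168), library 3 at novel_Chr3_coding_234 (0.0824) and library 4 at novel_Chr4_coding_54 (0.0631). The remaining wild-type values were 32.1 in library 4 at novel_Chr4_coding_24, 0.352 in library 5 at novel_Chr2_coding_162, 2.05 in library 1 at novel_Chr5_coding_423 and 1.39 in library 4 at novel_Chr5_coding_480.

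In sln, library 4 was low at merge_AT4G19310_AT4G19320 (0.473) and novel_Chr4_coding_310 (1.35), library 3 was high at merge_AT5G42280_AT5TE61030 (2.69) and novel_Chr2_coding_162 (2.18), and library 5 was high at novel_Chr2_coding_39 (4.76) and low at novel_Chr4_coding_185 (1438). The last 5 values were 1.46 in acd15.5 acd21.4 library 5 at merge_AT5G36020_AT5G36030, 13.3 in acd15.5 acd21.4 library 1 at novel_Chr4_coding_54, 8.07 in acd15.5 library 3 at novel_Chr3_coding_318, 17.1 in acd21.4 library 5 at novel_Chr3_coding_402 and 2.79 in mbd5 mbd6 library 3 at novel_Chr4_coding_311.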

How the results depend on the processing

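The direction of no named call reversed under any of the alternatives run; of 245 named calls, 45 left the threshold in at least 1 fit with a library left out. Calls lost numbered 99 of 228 in batch 1 alone, 39 of 228 in batch 2 alone, 25 of 215 with only the groups compared, 22 of 238 with DESeq2, 20 of 228 without the batch term, 18 of 245 without the filter on low counts, 17 of 245 without the 3 libraries that stood apart, 15 of 245 with reads in no feature as a covariate and 2 of 245 with DESeq2 size factors. Counts of calls under the alternatives, here and below, are of members alone. No share over all features is set beside them, so they do not separate these loci from the whole table. DESeq2 called 21 loci lower in acd15.5 acd21.4 sln (13 with edgeR) and 10 in place of 17 between acd15.5 acd21.4 sln and acd15.5 acd21.4.

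In batch 1 alone, with 2 libraries per genotype, rises numbered 4 in mbd5 mbd6 and 5 in acd15.5 acd21.4, falls 2 each in mbd5 mbd6, sln, acd15.5, acd21.4 and acd15.5 acd21.4 and 3 in acd15.5 acd21.4 sln. The 5 comparisons between mutants, in the order sln against mbd5 mbd6, acd15.5 acd21.4 against mbd5 mbd6, acd15.5 against acd21.4, and acd15.5 acd21.4 sln against sln and against acd15.5 acd21.4, then called 4, 5, 0, 2 and 7 members. In batch 2 alone, falls numbered 5 in sln, 21 in acd15.5 acd21.4 and 23 in acd15.5 acd21.4 sln, and the last 3 of these comparisons called 1, 32 and 9.

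Without the 3 libraries that stood apart, a choice made after seeing the data, falls numbered 23 in acd15.5 acd21.4 and 28 in acd15.5 acd21.4 sln, the last 2 comparisons called 52 and 11 and the batches 41. Without the batch term those falls were 4 and 8. Fitting only the groups compared gave 13 and 10 for the last 2 comparisons. With reads in no feature as a covariate the batches differed in 41 members. The cause of these shifts was not tested.

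With 1 library left out, falls ranged from 4 to 9 in sln (4 without library 4, 5 without library 5 or wild-type library 2), 3 to 5 in acd21.4 (3 without library 1), 5 to 14 in acd15.5 acd21.4 (14 without library 2, 12 without wild-type library 1) and 9 to 28 in acd15.5 acd21.4 sln (28 without library 1). Calls ranged from 13 to 47 between acd15.5 acd21.4 sln and sln (47 without library 1 of the former, 13 without sln library 5) and from 9 to 17 between acd15.5 acd21.4 sln and acd15.5 acd21.4 (9 to 11 without library 2, 4 or 5 of the former or library 2 or 4 of the latter).

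Between deviations of same-numbered libraries, r was above 0.1 in 20 of 105 pairs (median -0.001). Between other numbers in the same batch it was above 0.1 in 17 of 168 pairs (median -0.050). The main fit did not pair libraries by number, and whether the numbers pair them was not tested. With a replicate block, 3 of 228 named calls were lost, and calls numbered 11 and 7 (higher and lower) in mbd5 mbd6, 9 and 9 in acd15.5 acd21.4 and 20 between acd15.5 acd21.4 and mbd5 mbd6. Loci near the count limit of the rule have about 1 CPM, where single reads decide a difference.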
